A study of Mus musculus with 25 samples.

Results

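The genes described here were 43 genes of interferon signalling and antigen presentation in mouse retina, chosen by gene symbol from the 18440 genes listed in all 5 deposited expression tables. Of the 43, 5 belong to signalling and transcription (Stat2, Irf1, Irf7, Irf9, Nlrc5), 6 to class I antigen presentation (B2m, H2-D1, H2-K1, Tap1, Tap2, Tapbp), 3 to the immunoproteasome (Psmb8, Psmb9, Psmb10) and 4 to class II presentation (Cd74, H2-Aa, H2-Ab1, H2-Eb1). Another 12 are antiviral sensors and effectors (Ifih1, Ifit1, Ifit3, Oasl2, Oas1a, Rsad2, Bst2, Ifitm3, Xaf1, Rtp4, Ifi35, Ifi27), 6 are ISG15 and its ubiquitin and ADP-ribose enzymes (Isg15, Usp18, Trim25, Dtx3l, Parp9, Parp14) and 7 are interferon-induced GTPases (Gbp2, Gbp3, Gbp7, Igtp, Irgm1, Irgm2, Iigp1).

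Type I interferons bind a receptor whose kinases activate STAT2, which works with IRF9 to turn on genes that carry an interferon-stimulated response element (ISRE). Interferon gamma acts at a gamma-activated site (GAS) and raises IRF1, the GTPases and the antigen presentation machinery. In the retina the photoreceptors and other neurons are known for low levels of these genes, while microglia, glia and vessels can raise them after injury or infection.

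The series profiled retinas of wild-type C57BL/6J mice by bulk RNA sequencing after intravitreal injection at postnatal day 30. It set out to examine AA147, named as an activator of the ER stress sensor ATF6, and Ceapin-A7, named as an inhibitor of it, with tunicamycin, which blocks N-glycosylation, as positive control. The dose was 10 µM, in 1 µL of saline holding 0.05 to 0.1% dimethyl sulfoxide, into both eyes, and the vehicle groups, whose treatment label reads PBS, received the saline with dimethyl sulfoxide alone. Each compound had 5 libraries and there were 2 vehicle sets of 5 libraries each. All mice were wild type, and injected retinas only were profiled, so every group carries the injection. Vehicle set 1 shares its gene list with the AA147 table, and vehicle set 2 shares its list with the tunicamycin and Ceapin-A7 tables, so AA147 was compared with set 1 and the other compounds with set 2. The comparisons of tunicamycin and of Ceapin-A7 thus share their control libraries. The 15 compound columns carry a time of 24 h and the vehicle columns carry none, while collection in the series took place at 24 h, 3 d and 7 d. Time of collection and compound therefore cannot be told apart. The labels do not tie libraries to animals, so p-values measure spread among these libraries only, and that spread may be technical.

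Values are FPKM (fragments per kilobase of transcript, scaled by library size), which hold no read counts, and the depth of each library was not derived here. Each library had 12582 to 12870 genes at or above 1 FPKM. The 10 rod markers that define the labelled tissue summed to 17473 to 28010 FPKM in all 25 libraries. The Y-linked gene Ddx3y lay under 1 FPKM in libraries 4 and 5 of AA147, in libraries 1 to 4 of vehicle set 2 and in libraries 4 and 5 of Ceapin-A7. All genes were tested on log2(FPKM + 1) in 1 limma fit over the 25 libraries, for the 13117 genes that reached 1 FPKM in 5 or more libraries. A gene was called at a Benjamini-Hochberg adjusted p under 0.05 over all tested genes. Of the 43 genes, 39 passed the filter on low values. Nlrc5, Oas1a, Iigp1 and H2-Eb1 did not.

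Promoter sequences were read for 5 genes picked by smallest p, none of them called. These were Ifit1, Irgm2 and Ifit3 with AA147, and Tapbp and Irf7 with tunicamycin. They come from RefSeq on build GRCm38.p6, an earlier build than the GRCm39 named for the tables. Each run gives the 250 bases before the transcript start, 5′ to 3′ on the strand of the gene. Capitals mark matches to the ISRE core, GAAA and again GAAA after a gap of NN (any 2 bases). It was searched on both strands, and a match on the opposite strand reads as TTTC repeated after the same gap.
Ifit1: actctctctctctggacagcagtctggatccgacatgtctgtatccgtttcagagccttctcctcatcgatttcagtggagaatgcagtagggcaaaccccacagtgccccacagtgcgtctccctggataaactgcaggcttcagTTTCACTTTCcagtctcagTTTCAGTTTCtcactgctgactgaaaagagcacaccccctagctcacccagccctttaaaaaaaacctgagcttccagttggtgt
Irgm2: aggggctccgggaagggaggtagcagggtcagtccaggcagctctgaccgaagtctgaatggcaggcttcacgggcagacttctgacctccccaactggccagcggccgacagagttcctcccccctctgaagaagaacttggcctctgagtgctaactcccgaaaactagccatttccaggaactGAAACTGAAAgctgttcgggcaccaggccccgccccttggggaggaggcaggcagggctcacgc
Ifit3: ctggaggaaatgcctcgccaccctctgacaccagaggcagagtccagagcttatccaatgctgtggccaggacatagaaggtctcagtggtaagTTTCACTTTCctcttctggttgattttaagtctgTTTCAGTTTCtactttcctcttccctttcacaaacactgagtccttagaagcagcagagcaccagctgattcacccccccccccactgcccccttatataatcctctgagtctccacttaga
Tapbp: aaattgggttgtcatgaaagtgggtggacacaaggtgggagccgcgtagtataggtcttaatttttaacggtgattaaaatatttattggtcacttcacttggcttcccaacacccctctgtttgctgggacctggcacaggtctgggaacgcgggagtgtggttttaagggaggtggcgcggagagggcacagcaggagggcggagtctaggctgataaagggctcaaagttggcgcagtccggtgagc
Irf7: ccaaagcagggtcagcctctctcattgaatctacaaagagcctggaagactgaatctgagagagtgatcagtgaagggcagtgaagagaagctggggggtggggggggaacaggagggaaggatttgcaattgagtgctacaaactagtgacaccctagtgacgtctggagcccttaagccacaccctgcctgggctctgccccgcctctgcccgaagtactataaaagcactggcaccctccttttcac

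The Ifit1 run is chr19:34640639-34640888 on the plus strand, and its matches begin 104 and 85 bases before the start. For Ifit3 the run is chr19:34583279-34583528 on the plus strand, with matches that begin 156 and 122 bases before the start. Irgm2 (chr11:58214727-58214976, plus strand) holds 1 match, which begins 64 bases before the start. Tapbp (chr17:33919228-33919477, plus strand) and Irf7 (chr7:141266425-141266674, minus strand) hold no match to these letters in this window.

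Windows of 300 bases, from 250 before to 50 after a start, were found for 33 of the 43 genes. The ISRE core lay in a window of 16 of the 33 (48.5%), against 3.41% of the 10447 tested genes with a window and 3.44% of all 32851 windows of the table. The GAS letters TTCNNNGAA, which read the same on both strands, lay in 9 of the 33 (27.3%), against 8.08% of tested genes. TGACG, a short motif of class II and class I promoters, lay in 11 of the 33 (33.3%), against 35% of tested genes. The windows of Psmb9 and Tap1, which face away from each other on chromosome 17, overlap by 275 bases. A match is a run of letters in a window and was not tested as a binding site.

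The 43 genes spanned a wide range of levels, all given here per length as the mean FPKM of the 25 libraries. The class I genes H2-D1 (55.3 FPKM), B2m (46.1), H2-K1 (31.2) and Tapbp (27.7), with the membrane protein gene Ifitm3 (38.3), made up the 5 genes above 20 FPKM. H2-D1 and H2-K1 encode class I heavy chains, B2m their light chain, and Tapbp the tapasin that ties them to the peptide transporter. A further 10 genes lay between 5 and 20 FPKM, led by the transcription factor genes Stat2 (15.8), Irf9 (12.6) and Irf7 (11.8). There were 23 genes between 1 and 5 FPKM and 5 under 1 FPKM, the latter being Rsad2 (0.911), H2-Eb1 (0.51), Oas1a (0.503), Iigp1 (0.479) and Nlrc5 (0.424). H2-D1 and H2-K1, Ifit3 and its neighbour copy, and the GTPase families are near-identical copies in part, and how reads shared by copies were assigned is not given in the sources used here.

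The ranges of neighbours in this order often overlapped. Across the 10 vehicle libraries, which pool both vehicle sets, H2-D1 stood at 58.5 ± 20.3 FPKM (SD, n = 10), B2m at 44.5 ± 7.03 and Ifitm3 at 36.8 ± 12.6, so that the ranges of mean ± SD overlapped from each to the next. The genes were read in the same libraries, however. H2-D1 lay above B2m in every vehicle library except vehicle set 1 library 2 (44.63 against 54.88 FPKM).

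Spread between libraries of 1 group was large for these genes. The median within-group SD on the log2(FPKM + 1) scale was 0.31 for the 39 tested genes and 0.10 for all tested genes, and 95.9% of all tested genes had a smaller SD than the members' median. Their median level on that scale was 2.32, below the 3.73 of all tested genes. Cd74, the invariant chain of class II molecules, had the largest SD at 0.62, followed by Bst2, which encodes tetherin, at 0.50. The smallest belonged to Trim25, a ubiquitin ligase of RNA sensing, at 0.15 and to Gbp7, a guanylate-binding GTPase, at 0.16.

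In some libraries nearly all of the 39 genes lay on the same side of the median of their group, and in others they were mixed. All 39 were above it in AA147 library 2, 38 in vehicle set 1 library 1, and 37 each in vehicle set 2 library 4 and tunicamycin library 3, while 37 were below it in AA147 library 4 and in Ceapin-A7 library 2. Vehicle set 2 library 5 had 21 above and 13 below, vehicle set 1 library 2 had 20 and 10, and Ceapin-A7 library 4 had 13 and 15, the rest being at the median. The mean log2(FPKM + 1) of the 39 genes in libraries 1 to 5 was 2.74, 2.48, 2.27, 2.45 and 2.28 in vehicle set 1 and 2.77, 3.15, 2.75, 2.26 and 2.38 with AA147. It was 2.61, 2.48, 2.31, 3.00 and 2.62 in vehicle set 2, 2.15, 2.36, 2.90, 2.36 and 2.65 with tunicamycin, and 2.59, 2.39, 2.79, 2.61 and 2.79 with Ceapin-A7. Each of the first 4 of these groups had 1 library above the others, while Ceapin-A7 had a pair. The groups overlapped in every comparison of a compound with its vehicle set.

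**Figure D1:**
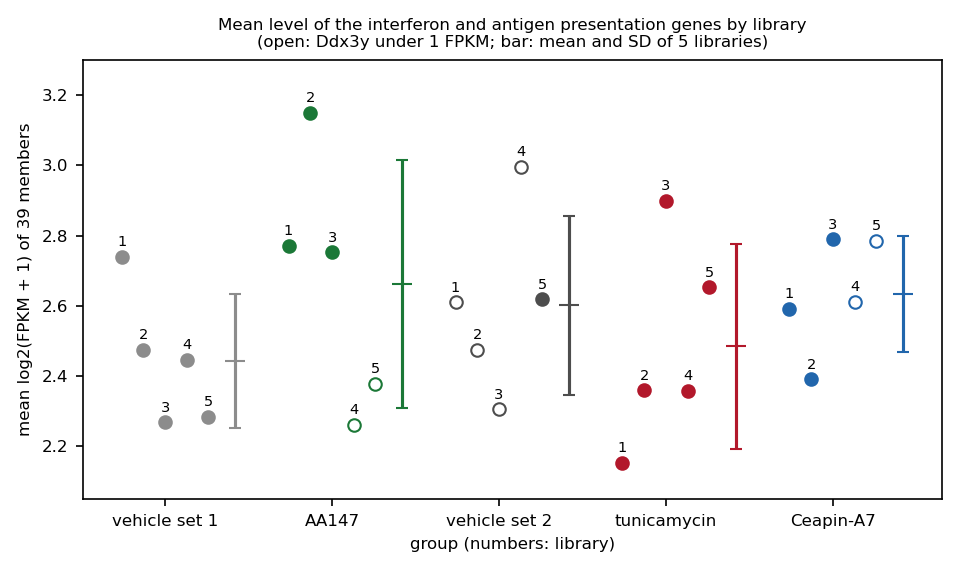
Each point is 1 library, placed by the mean log2(FPKM + 1) of the 39 tested genes on the y axis and by group on the x axis, with its library number, open where Ddx3y is under 1 FPKM, and a bar for the mean and SD of 5 libraries. AA147 library 2, at 3.15, is the highest point and tunicamycin library 1, at 2.15, the lowest, and all groups overlap.

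In vehicle set 1, library 1 held the highest level of 30 of the 39 genes, 78.2% with ties shared, while 20.5% of all tested genes had their highest level there. AA147 library 2 held the highest level of 34 genes (87.2%, against 27.5% of all tested genes). Vehicle set 2 library 4 held it for 27 (69.2% against 24.0%) and tunicamycin library 3 for 31 (79.5% against 29.3%). In Ceapin-A7 libraries 3 and 5 shared the place with 16 genes each (41.0% each, against 22.9% and 16.6%). At the low end, AA147 library 4 was the lowest of its group for 27 genes (69.2%, against 22.5% of all tested genes), vehicle set 2 library 3 for 28 (71.8% against 18.2%), tunicamycin library 1 for 26 (66.7% against 36.2%) and Ceapin-A7 library 2 for 20 (51.3% against 20.7%). In vehicle set 1 no single library held the low end, with 15 genes lowest in library 5 and 14 in library 3 (38.5% and 35.9%, against 29.2% and 17.2%). Over all 25 libraries and 43 genes, AA147 library 2 held the highest value of 15 genes, vehicle set 2 library 4 of 12, and tunicamycin library 1 the lowest value of 15.

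**Figure D2:**
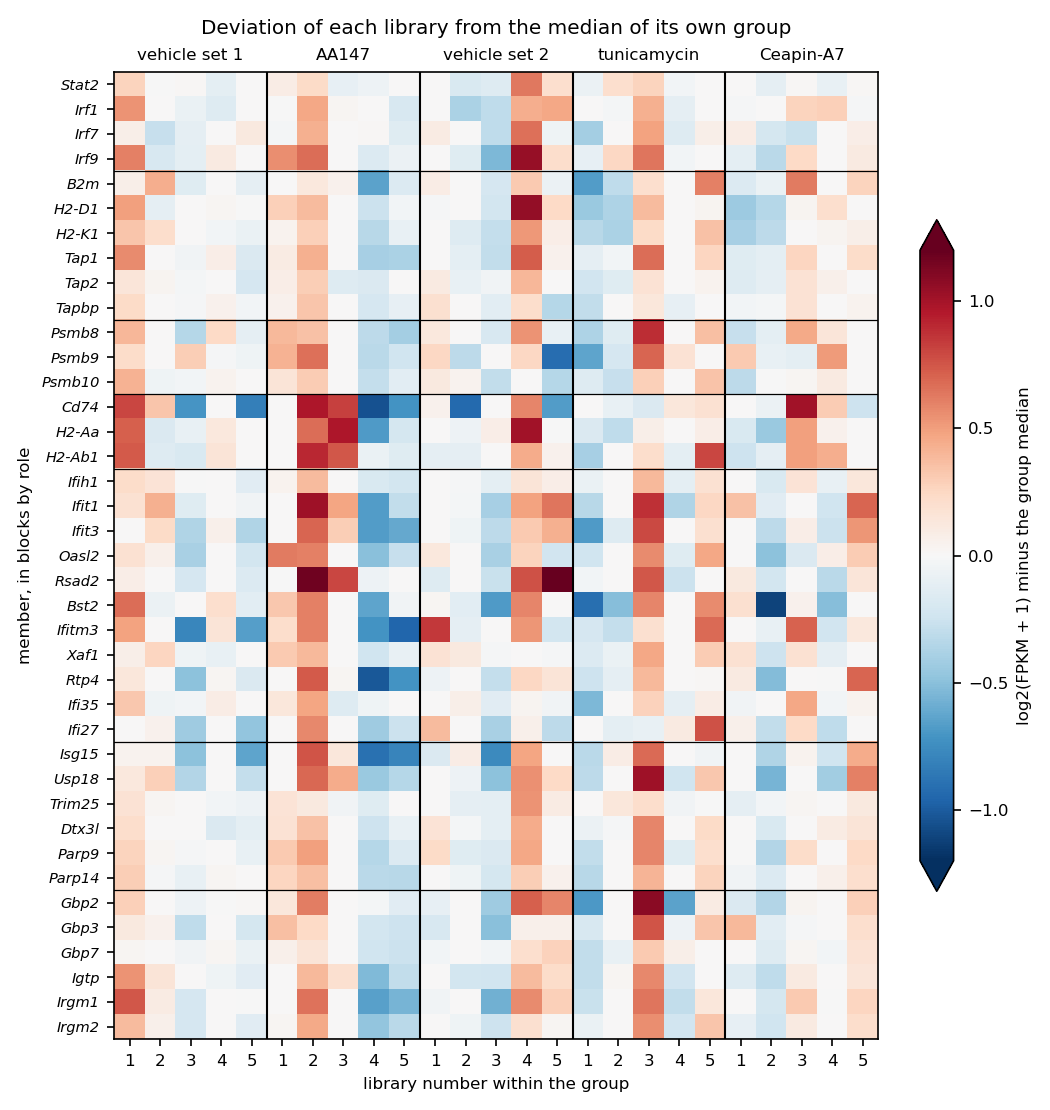
Rows are the 39 tested genes in blocks by role and columns are the 25 libraries, and colour gives log2(FPKM + 1) minus the median of the library's own group, red for above and blue for below. Vehicle set 1 library 1, AA147 library 2, vehicle set 2 library 4 and tunicamycin library 3 are red for nearly all rows.

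Other gene lists were read in the same libraries. The median deviation of 13 reactive gliosis genes, such as Gfap and Lcn2, from the group median was 0.74 in vehicle set 1 library 1, 0.68 in AA147 library 2, 0.94 in vehicle set 2 library 4 and 0.45 in tunicamycin library 3 on the log2 scale. That of 15 tested microglia genes was 0, 0.18, -0.063 and 0.28 in the same libraries, and that of the 4 tested genes of 14 monocyte and macrophage markers was 0.31, 0.26, 0.19 and 0.24. The 10 cytokine genes, such as Ccl2 and Ccl12, summed to 11.41, 13.39, 40.21 and 25.74 FPKM there, the highest sum of each group, against 1.1 to 4.44 FPKM in the rest of vehicle set 1, 3.13 to 8.78 with AA147, 2.13 to 10.8 in vehicle set 2 and 2.65 to 6.92 with tunicamycin. In Ceapin-A7 libraries 3 and 5, the high pair of that group, the gliosis deviation was 0.22 and 0. There the microglia deviation was 0.10 and 0.034 and that of monocytes and macrophages 0.21 and 0.068. The cytokine sum was 3.9 and 5.26 FPKM in this pair, against 1.42 to 4.25 in the rest of Ceapin-A7. All 10 matched T and NK cell markers stayed under 1 FPKM in every library, with a sum of 0.24 to 1.49 FPKM, and Ptprc, Cd3e and Cd8a were among them. Tunicamycin library 1, the lowest of its group for most of the genes, had the highest sum of the 10 lens markers, 14555 FPKM, against 64.3 to 9861 FPKM in the other 24 libraries, and the lowest sum of the 18 microglia markers, 50.2 FPKM against 62.1 to 117.2. For the libraries first listed above, in that order, the deviation of 5 erythrocyte markers was 0, 1.34, -0.37 and -0.27. That of 9 tested pigment epithelium markers was 0, 1.27, -0.17 and 0. For 9 tested Muller glia and astrocyte markers it was 0, 0.011, -0.30 and 0.11. For the 10 rod markers it was 0, -0.058, -0.30 and 0.012. The part of gliosis, microglia, macrophage, cytokine, lens, erythrocyte, pigment epithelium, Muller glia and rod RNA in the levels of these genes was not tested. In bulk retina, fewer cells of a type and less RNA per cell cannot be told apart.

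With AA147, 0 of the 39 tested genes were called against vehicle set 1, where 0% of all 13117 tested genes were called. At an unadjusted limma p under 0.05, 3 of the 39 were higher and 0 lower, where 1.88% of all tested genes passed (1.11% higher). The change was above 0 for 38 of the 39 genes, with a median of 0.19 on the log2(FPKM + 1) scale, while 57.1% of all tested genes were above 0 with a median of 0.0092. None of the 39 had groups that did not overlap, as 0.45% of all tested genes had in the direction of higher levels. Of the 13 reactive gliosis genes 8 had AA147 changes above 0, with a median of 0.20 and 0 called, and their part in the changes of the 39 genes was not tested.

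Ifit1, which binds viral RNA that lacks the host cap methylation, stood at 1.56, 2.03, 1.04, 1.25 and 1.18 FPKM in libraries 1 to 5 of vehicle set 1 and at 2.77, 6.64, 4.23, 1.37 and 2.08 FPKM with AA147. Libraries 1, 2, 3 and 5 of AA147 were above every vehicle library, and library 4 lay inside the vehicle range. The difference was 0.76 (SE 0.27, 95% interval 0.20 to 1.33) on the log2(FPKM + 1) scale, with a limma adjusted p of 1.00.

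Ifit3, which acts with Ifit1 in one complex, stood at 10.04, 11.97, 7.59, 10.54 and 7.57 FPKM in vehicle set 1 and at 14.8, 24.63, 18.36, 8.96 and 9.29 FPKM with AA147. The first 3 AA147 libraries were above every vehicle library and the last 2 were inside the vehicle range. On the log2 scale the change was 0.54 (SE 0.25, 95% interval 0.030 to 1.06), with a limma adjusted p of 1.00.

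Irgm2, an immunity-related GTPase that guards intracellular membranes, stood at 2.22, 1.58, 1.15, 1.47 and 1.25 FPKM in vehicle set 1 and at 2.5, 3.73, 2.45, 1.49 and 1.76 FPKM with AA147. Again libraries 1, 2 and 3 of AA147 exceeded all vehicle libraries, while libraries 4 and 5 did not. The change was 0.40 (SE 0.16, 95% interval 0.075 to 0.72) on the log2 scale, with a limma adjusted p of 1.00.

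The next genes by p were Gbp3 (log2 change 0.31, SE 0.16), Irgm1 (0.46, SE 0.23), Parp14 (0.27, SE 0.14), Ifih1 (0.21, SE 0.11) and Rsad2 (0.50, SE 0.26). Rsad2, which encodes the antiviral enzyme viperin, stood at 0.35 to 0.64 FPKM in vehicle set 1 and at 0.61, 2.63, 1.83, 0.55 and 0.62 FPKM with AA147, so its difference lay in libraries 2 and 3. Ifih1 encodes the double-stranded RNA sensor MDA5, and ranged from 0.7 to 1.18 FPKM in vehicle set 1 and from 0.91 to 1.91 with AA147. Isg15, a ubiquitin-like protein joined to other proteins, stood at 3.6, 3.59, 2.17, 3.46 and 1.87 FPKM in vehicle set 1 and at 4.92, 9, 5.5, 2.19 and 2.41 FPKM with AA147, and the pattern of 3 high and 2 low AA147 libraries was that of Ifit3.

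By role, the median log2 change with AA147 was 0.35 over the 6 tested GTPases, 0.24 over the 6 genes of the ISG15 block, 0.20 over the 11 tested antiviral genes and 0.20 over the 3 tested class II genes. It was 0.16 over the 3 immunoproteasome genes, 0.10 over the 4 tested signalling genes and 0.048 over the 6 class I genes. B2m stood at 42.2 ± 7.46 FPKM (SD, n = 5) in vehicle set 1 and at 43.8 ± 8.58 with AA147, and H2-K1 at 30.1 ± 3.91 and 30.9 ± 4.88. Among the 31 tested genes with a promoter window, the median AA147 change was 0.31 for the 15 with an ISRE core and 0.12 for the 16 without one, and the median within-group SD was 0.39 and 0.26. With and without the core, the median change was 0.080 and -0.032 with Ceapin-A7 and -0.16 and -0.14 with tunicamycin. For vehicle set 2 minus vehicle set 1, which holds no compound, it was 0.21 and 0.096. These role and motif medians are descriptions, and the difference between them was not tested.

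The Ddx3y-negative AA147 libraries, 4 and 5, were also the lowest of their group for these genes by mean level. In Ceapin-A7, the Ddx3y-negative libraries 4 and 5 had means of 2.61 and 2.79, inside the range of the others, 2.39 to 2.79. In vehicle set 2, libraries 1 to 4, which were Ddx3y-negative, held both the lowest mean, 2.31, and the highest, 3.00. With the log2 level of Ddx3y in the model as a covariate, 39 of 39 changes with AA147 were above 0, with a median of 0.22, and 10 of the 39 passed an unadjusted limma p of 0.05, as did 2.2% of all tested genes. With the same covariate the median change with tunicamycin was -0.21, with 36 of 39 below 0, in place of -0.12, and that with Ceapin-A7 was -0.0071, with 19 above and 20 below 0, in place of 0.053. In these 3 fits 0 of the 39 genes were called. Every tunicamycin library had Ddx3y at 9.84 FPKM or more, so compound and Ddx3y level go together in large part in that comparison. The part of Ddx3y in the levels was otherwise not tested.

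With tunicamycin, 0 of the 39 genes were called against vehicle set 2, where 8.7% of all tested genes were called (5.89% higher and 2.81% lower). At an unadjusted limma p under 0.05, 2 of the 39 were lower and 0 higher, where 24.6% of all tested genes passed (9.64% lower). The change was below 0 for 33 of the 39 genes and above 0 for 6, with a median of -0.12 on the log2 scale. Of all tested genes 45.6% were below 0 and 54.4% above, with a median of 0.013. None had groups that did not overlap, as 2.81% of all tested genes had upward and 1.24% downward. Of the 13 reactive gliosis genes 12 had changes below 0 with tunicamycin, with a median of -0.27 and 0 called. Of 14 endothelium markers 8 were called lower and 3 higher, with a median of -0.36. Of 9 tested pericyte and smooth muscle markers 5 were called lower and 0 higher, with a median of -0.66. Of 9 tested pigment epithelium markers 5 were called lower and 0 higher, with a median of -0.61. The microglia and the Muller glia lists had 0 called. The part of these cell types in the changes of the 39 genes was not tested.

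Tapbp stood at 30.32, 26.42, 24.16, 30.72 and 20.56 FPKM in vehicle set 2 and at 18.35, 22.74, 25.12, 21.17 and 22.8 FPKM with tunicamycin. Vehicle libraries 3 and 5 lay inside the tunicamycin range, and tunicamycin library 1 alone lay below every vehicle library. The log2 difference was -0.24 (SE 0.099, 95% interval -0.45 to -0.039), with a limma adjusted p of 0.125. Without vehicle set 2 library 5 it was -0.33 and was called, with a limma adjusted p of 0.0345.

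Irf7, the factor that amplifies type I interferon production, stood at 13.14, 12.25, 9.71, 20 and 11.8 FPKM in vehicle set 2 and at 7.22, 9.9, 14.25, 8.8 and 10.44 FPKM with tunicamycin. Vehicle library 4 was highest, and tunicamycin library 3 lay above 4 of the 5 vehicle libraries. Its log2 difference was -0.36 (SE 0.15, 95% interval -0.68 to -0.047), with a limma adjusted p of 0.14. Without tunicamycin library 3 the difference was -0.48 and was called, with a limma adjusted p of 0.0279.

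The other genes among the 8 smallest p-values were Tap2, a subunit of the peptide transporter (log2 change -0.17, SE 0.099), Trim25 (-0.15, SE 0.092), H2-Aa, the alpha chain of a class II molecule (-0.42, SE 0.25), Xaf1, which counters an inhibitor of apoptosis (-0.19, SE 0.12), Stat2 (-0.16, SE 0.11) and Igtp, an immunity-related GTPase (-0.23, SE 0.17). Their limma adjusted p-values ran from 0.309 to 0.433. By role, all 4 tested signalling genes and all 6 tested GTPases had changes below 0, with medians of -0.14 and -0.13. Of the 6 class I genes 4 were below 0, with a median of -0.16, and Psmb10, a catalytic subunit of the immunoproteasome, was above 0 at 7.83 ± 1.64 FPKM (SD, n = 5) against 7.39 ± 1.18. The class II gene Cd74 stood at 2.08 ± 0.323 FPKM with tunicamycin and 2.3 ± 1.36 in vehicle set 2, and H2-Ab1 at 2.32 ± 1.13 and 2.02 ± 0.513.

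With Ceapin-A7, 0 of the 39 genes were called against vehicle set 2, where 0% of all tested genes were called. At an unadjusted limma p under 0.05, 1 gene was higher and 2 were lower, where 12.3% of all tested genes passed (5.49% higher and 6.82% lower). The change was above 0 for 23 genes and below 0 for 16, with a median of 0.053, and 49.8% of all tested genes were above 0 with a median of -0.00035. None had groups that did not overlap, as 0.968% of all tested genes had upward and 0.48% downward. The 13 reactive gliosis genes all had changes below 0 with Ceapin-A7, with a median of -0.75, 8 of them at an unadjusted limma p under 0.05 and 0 called.

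Ifi27, a small interferon-induced membrane protein gene, stood at 13.59, 10.23, 7.6, 10.74 and 8.04 FPKM in vehicle set 2 and at 15.55, 11.87, 17.74, 11.81 and 14.84 FPKM with Ceapin-A7. Vehicle library 1 lay above Ceapin-A7 libraries 2 and 4, and the other 4 vehicle libraries lay below all Ceapin-A7 libraries. The log2 change was 0.49 (SE 0.18, 95% interval 0.11 to 0.87), with a limma adjusted p of 0.332. With tunicamycin, which shares these vehicle libraries, Ifi27 was at 8.81, 8.06, 8.23, 9.54 and 15.64 FPKM.

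Stat2, the partner of IRF9, stood at 14.62, 12.78, 13.07, 23.2 and 17.01 FPKM in vehicle set 2 and at 13.4, 12.4, 13.55, 12.57 and 13.54 FPKM with Ceapin-A7. The Ceapin-A7 libraries lay close together, at the level of vehicle libraries 2 and 3, and vehicle libraries 1, 4 and 5 stood above all of them. Its log2 change was -0.25 (SE 0.11, 95% interval -0.48 to -0.021), with a limma adjusted p of 0.377. Trim25 changed by -0.20 (SE 0.092, 95% interval -0.39 to -0.012), with a limma adjusted p of 0.385, and its highest vehicle value of 12.63 FPKM was again in library 4, against 7.65 to 9.07 in the other vehicle libraries.

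The remaining genes among the 8 smallest p-values were H2-D1 (-0.31, SE 0.20), Xaf1 (0.19, SE 0.12), Irf9 (-0.34, SE 0.22), Ifit3 (0.38, SE 0.25) and Irf7 (-0.23, SE 0.15), as log2 changes. H2-D1 stood at 53.02, 53.56, 45.89, 112.22 and 63.19 FPKM in vehicle set 2 and at 39.69, 42.48, 55.25, 62.51 and 54.1 FPKM with Ceapin-A7. Its value in vehicle library 4 was the highest of all 25 libraries. All 4 tested signalling genes had changes below 0, with a median of -0.24, and 9 of the 11 tested antiviral genes were above 0, with a median of 0.066.

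**Figure D3:**
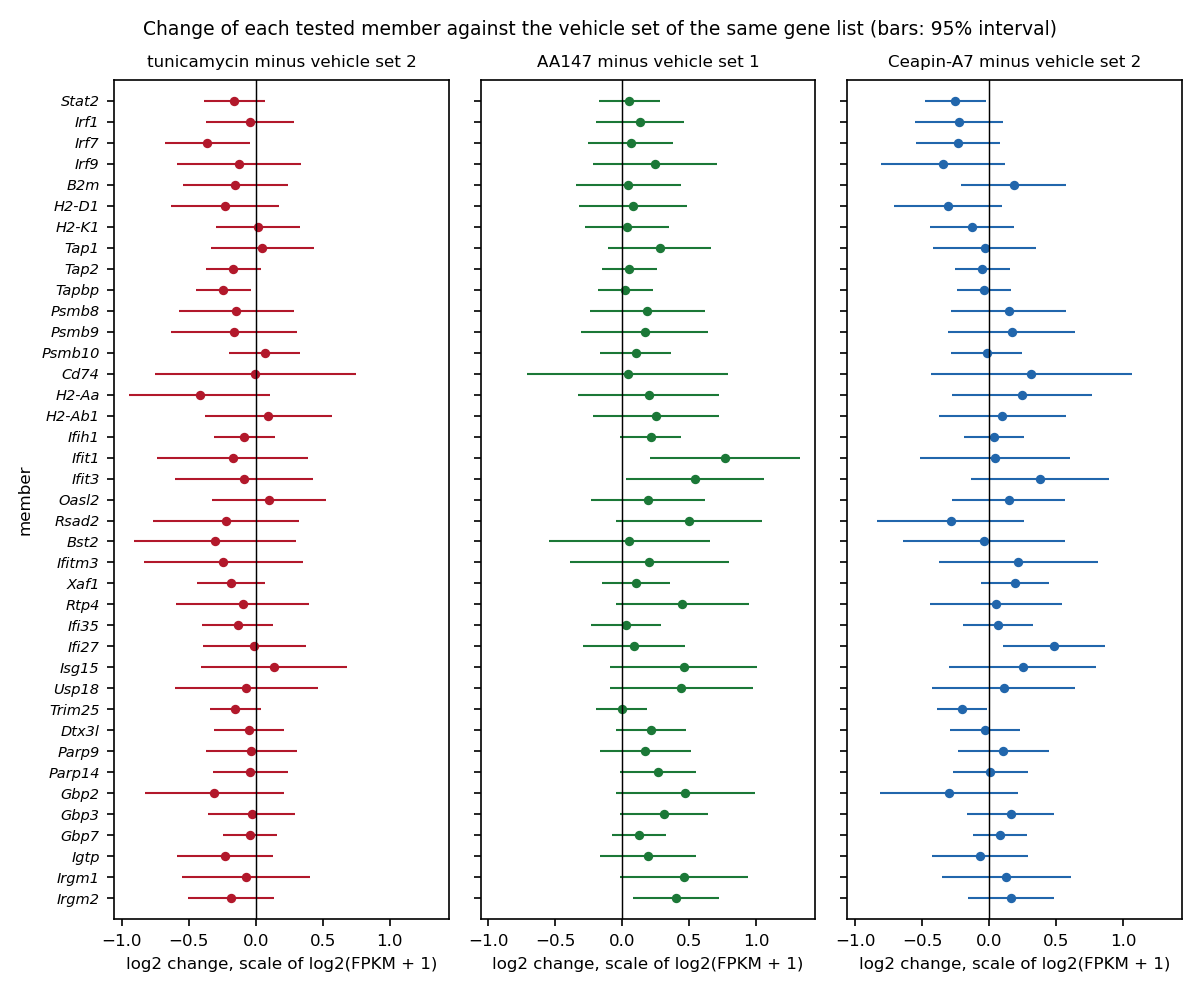
Each dot is the log2 change of 1 gene on the log2(FPKM + 1) scale with its 95% interval, in 1 panel per compound against its own vehicle set, with genes in order of role from signalling at the top to GTPases at the bottom. Most intervals include 0, and the AA147 panel has 38 of 39 dots above 0, with Ifit1 at 0.76 the farthest.

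**Figure D4:**
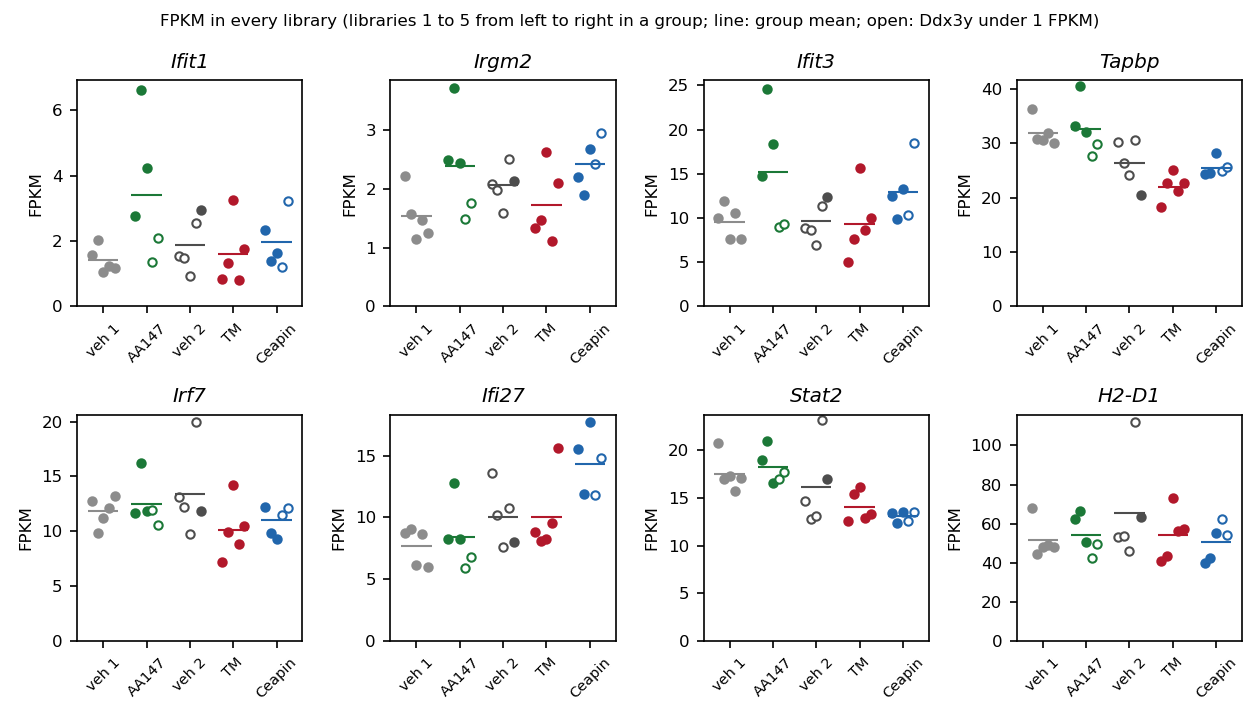
FPKM of 8 genes in every library, with libraries 1 to 5 from left to right in a group, a line at the group mean and open points where Ddx3y is under 1 FPKM. Ifit1, Ifit3 and Irgm2 have 3 high and 2 lower AA147 libraries, and vehicle set 2 library 4 is the highest of its set for Irf7, Stat2 and H2-D1.

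Single libraries set the size of the median change, and in some cases its sign. For AA147 the median of 0.19 fell to 0.066 without AA147 library 2, with 28 of 39 genes above 0, and was 0.28 without AA147 library 4. Without AA147 libraries 4 and 5 together it was 0.43, with 39 of 39 above 0, 19 of the 39 at an unadjusted limma p under 0.05, which 2.36% of all tested genes passed, and 0 called. These libraries were left out after their values were seen. Their means for these genes, 2.26 and 2.38, were the lowest of AA147. Without them the changes with AA147 therefore move upward, and the count of 19 follows in part from that choice. Ifit1 was not called when any single library of either group was left out.

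For tunicamycin the median of -0.12 was -0.032 without vehicle set 2 library 4 and -0.017 without tunicamycin library 1, each with 23 genes below 0. It was -0.22 without tunicamycin library 3 and -0.20 without vehicle set 2 library 3. Without vehicle set 2 libraries 4 and 5 together it was 0.037, with 24 of the 39 genes above 0. Libraries 4 and 5 had the highest means of vehicle set 2 for these genes, 3.00 and 2.62. Leaving them out therefore moves changes against this set upward. The sign of the tunicamycin median differed only with this pair left out, and with no single library left out. For Ceapin-A7 the median of 0.053 was 0.12 without vehicle set 2 library 4 or without Ceapin-A7 library 2, and -0.026 without vehicle set 2 library 3 or without Ceapin-A7 library 5. Without vehicle set 2 libraries 4 and 5 it was 0.18, with 32 genes above 0.

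**Figure D5:**
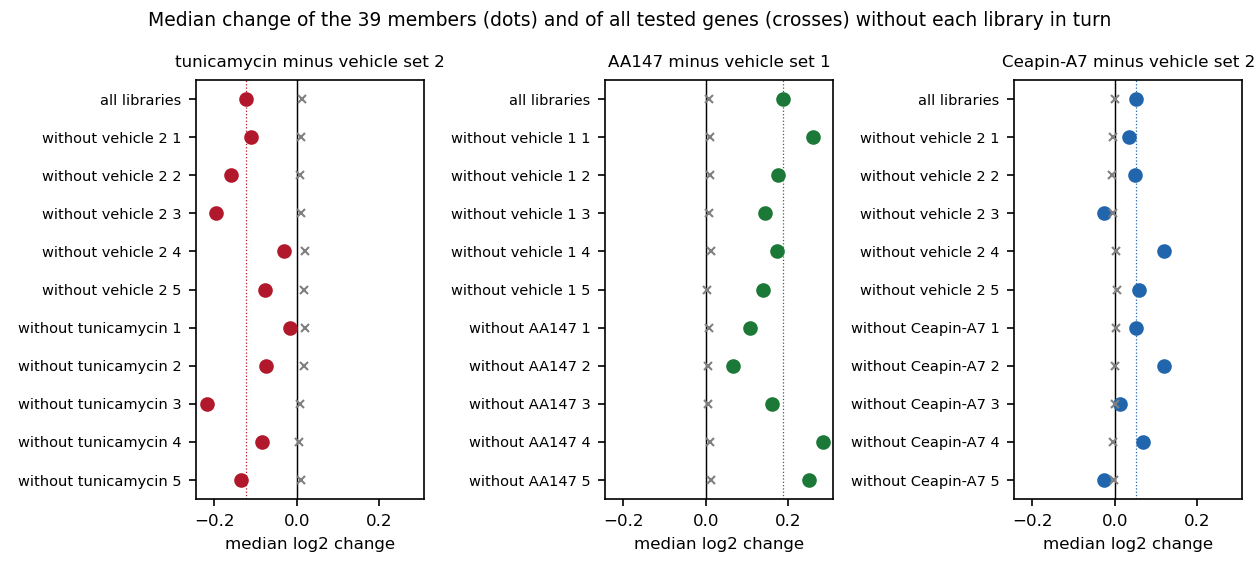
Dots give the median log2 change of the 39 genes and crosses that of all tested genes, with all libraries in the top row and with 1 library left out in each row below, in 1 panel per compound. The dots range from -0.22 to -0.017 for tunicamycin, from 0.066 to 0.28 for AA147 and from -0.026 to 0.12 for Ceapin-A7, while the crosses stay near 0.

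Tunicamycin and Ceapin-A7 were also compared with each other, as both belong to 1 gene list. Of the 39 genes 1 was called lower with tunicamycin and 0 higher, where 13.3% of all tested genes were called (4.48% lower). This was Xaf1, at 1.22, 1.34, 2.43, 1.48 and 2.07 FPKM with tunicamycin and 2.94, 1.92, 2.95, 2.21 and 2.47 FPKM with Ceapin-A7. Tunicamycin library 3 lay above Ceapin-A7 libraries 2 and 4, so the groups overlapped. The log2 difference was -0.38 (SE 0.12), with a limma adjusted p of 0.0424. The call was lost without any one of tunicamycin libraries 1, 2 or 4 or Ceapin-A7 libraries 1, 3, 4 or 5, with limma adjusted p-values of 0.0524 to 0.142. H2-Aa was the 1 gene whose groups did not overlap, at 0.35 to 0.77 FPKM with tunicamycin and 0.88 to 2.59 with Ceapin-A7, where 2.74% of all tested genes did not overlap downward and 6.73% upward. It was not called, and was named here after its values were seen. The difference was below 0 for 30 genes and above 0 for 9, with a median of -0.14, and 54.4% of all tested genes were above 0.

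When AA147 and Ceapin-A7 were compared, each relative to its own vehicle set, 0 of the 39 genes were called, as were 0% of all tested genes. At an unadjusted limma p under 0.05, 2 of the 39 were higher with AA147 and 0 lower, where 6.72% of all tested genes passed (4.29% higher). The difference was above 0 for 31 genes, with a median of 0.17, and for 53.9% of all tested genes.

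The vehicle sets differed from each other in 46.8% of all tested genes, and in 2 of these 39. Tapbp was lower in set 2, at 26.4 ± 4.28 FPKM (SD, n = 5) against 32 ± 2.53 in set 1, a log2 difference of -0.28 (SE 0.099) with a limma adjusted p of 0.0243. Gbp7, named here after its values were seen, was higher in set 2, at 1.55 ± 0.261 FPKM against 1.12 ± 0.0693, a log2 difference of 0.26 (SE 0.098) with a limma adjusted p of 0.0308. Its groups did not overlap, as those of 19.1% of all tested genes did not upward. The Tapbp call was lost without vehicle set 1 library 1 or vehicle set 2 library 3 or 5, with limma adjusted p-values of 0.0584 to 0.0961. The Gbp7 call was lost without vehicle set 1 library 3 or 5 or vehicle set 2 library 4 or 5, with limma adjusted p-values of 0.0551 to 0.0906. Ddx3y lay under 1 FPKM in libraries 1 to 4 of set 2, while every set 1 library had 10.91 FPKM or more. With the Ddx3y level in the model the Tapbp call was lost as well, at a limma adjusted p of 0.0612. Gbp7 stayed called there, and Rsad2 was called higher in set 2. Collection, table, set and Ddx3y differences between the vehicle sets cannot be told apart.

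Other genes of the pathway were read from lists chosen with earlier results of these data known. Ifnb1 and Ifng, which encode interferon beta and gamma, reached at most 0.09 and 0.06 FPKM in any library. Ciita, the class II transactivator, reached 0.12 FPKM. Of 8 tested receptors, ligands and kinases, 0 were called with any compound. Over all tested genes 8.7% were called with tunicamycin and 0% with AA147 or Ceapin-A7. Ifnar1, a chain of the type I receptor, stood at 9.18 to 11.62 FPKM over the 25 libraries.

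With tunicamycin, 3 of 24 other tested antigen presentation genes were called higher and 0 lower. Over all tested genes 5.89% were called higher and 2.81% lower. The 3 genes were Calr, Canx and Pdia3, which encode ER folding factors that also act on class I heavy chains. Pdia3 stood at 81.08, 79.22, 69.4, 75.31 and 77.96 FPKM in vehicle set 2 and at 297.68, 146.12, 95.87, 147.42 and 137.59 FPKM with tunicamycin, with no overlap and its highest value in tunicamycin library 1. Over all tested genes 2.81% had no overlap in the direction of higher levels. The log2 change of Pdia3 was 0.99 (SE 0.17), with a limma adjusted p of 0.000789. The changes of Calr and Canx were 0.95 (SE 0.20) and 0.55 (SE 0.13), and all 3 were not called when only the compared groups were fitted, with limma adjusted p-values of 0.0947 to 0.195. Calr and Canx were also not called with the Ddx3y level in the model, at limma adjusted p-values of 0.073 and 0.0889.

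Of 20 other tested sensors, factors and inhibitors, 1 was called higher with tunicamycin and 0 lower. That is near the share over all tested genes, 5.89% higher and 2.81% lower. The called gene was Rfxap, a subunit of the complex that binds class I and class II promoters, at 11.4 ± 0.909 FPKM (SD, n = 5) in vehicle set 2 and 13.6 ± 0.677 with tunicamycin, a log2 change of 0.23 (SE 0.051) with a limma adjusted p of 0.00567. Its call was lost with the compared groups only and with the Ddx3y level in the model, at limma adjusted p-values of 0.119 and 0.0639. Of 35 other tested induced effectors, 1 was called higher and 1 lower, which is no more than near the same shares. Isg20, an exonuclease gene, stood at 0.67 to 1.23 FPKM in vehicle set 2 and at 1.43 to 2.1 with tunicamycin, a log2 change of 0.52 (SE 0.099) with a limma adjusted p of 0.00197. Sp100, a nuclear body protein gene, stood at 0.69 to 1.13 FPKM and at 0.22 to 0.49, a log2 change of -0.50 (SE 0.096) with a limma adjusted p of 0.00215. Both sets of libraries were apart for Isg20 and for Sp100, and both lie at or under 2.1 FPKM. Over all tested genes 2.81% were apart upward and 1.24% downward. With AA147 and with Ceapin-A7, 0 genes of these lists were called, as were 0% of all tested genes.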

How the data were processed

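Bulk RNA sequencing of mouse retina had been carried out in 25 libraries, 5 in each of 5 groups. The authors deposited FPKM values with 2 decimals, in 5 tables, 1 per group. Per the submitters' processing notes, HISAT2 2.0.4, RSEM 1.2.18, DESeq2 1.4.5 and build GRCm39 were used, with no role or order given. Per the labels' protocols, cornea and lens were removed and stranded mRNA libraries were made. Columns were matched to samples by name, and 0 columns were left out. No pair of libraries held identical values.

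FPKM is not counts, so no count model was used. Values were tested as log2(FPKM + 1) with limma 3.58.1 in R 4.3.3, in 1 fit with 5 groups and a trend in the variance prior, two-sided, after a check on simulated data. Keeping genes with at least 1 FPKM in 5 of 25 libraries left 13117. This scale understates changes of low genes, and spread pooled over groups understates that of a more variable group. Descriptions used Python 3.11.15 with numpy 2.4.6, pandas 2.3.3 and matplotlib 3.10.9.

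The genes and lists were chosen with earlier results of these data known. Test values are printed for the 8 genes of smallest p in each comparison of a compound with its vehicle set, and in other lists for called genes, or otherwise the 2 of smallest p. Alternatives were a pseudocount of 0.1, no filter, other scalings, array weights, the compared groups or 1 table family only, both vehicle sets as control, the level of Ddx3y as covariate, a replicate block and leaving out libraries.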

Additional observations from a re-analysis of the deposited data

Results flagged for a closer look

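In 19 of 195 gene and group pairs (9.74%), 1 library stood apart from the other 4, by a gap to its nearest neighbour of more than 0.71 of the range of the group. Over all tested genes the share was 5.89%, and chance gives about 1 in 20. In each of the 19 the library was the highest of its group.

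Vehicle set 1 library 1 held 8 of them, in FPKM: H2-D1 at 67.87 (nearest other library 48.83), Psmb10 at 9.06 (6.74), Irf1 at 7.21 (4.66), Irgm1 at 6.24 (3.62), Gbp2 at 3.39 (2.64), Parp9 at 3.3 (2.63), H2-Aa at 1.47 (0.64) and Parp14 at 1.3 (0.91). Vehicle set 2 library 4 held 5, with H2-D1 at 112.22 (63.19), Trim25 at 12.63 (9.07), Tap1 at 3.79 (1.99), H2-Ab1 at 2.91 (1.98) and H2-Aa at 2.73 (0.96). H2-D1 and H2-Aa stood apart in both vehicle libraries.

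AA147 library 2 stood apart for Irf7 at 16.25 FPKM (11.94) and Irf1 at 7.58 (5.31). Tunicamycin library 3 did so for Irf1 at 6.54 FPKM (4.62) and Rsad2 at 1.78 (0.67), and tunicamycin library 5 for Ifi27 at 15.64 (9.54). In Ceapin-A7 library 3, Ifi35, an interferon-induced leucine zipper protein gene, was at 6.1 FPKM (4.33). Irf1, a transcription factor raised by interferon gamma, was thus apart in 3 groups. The cause of these values was not tested.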

How the results depend on the processing

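Of 1103 values recomputed under other settings, 1037 were counted as kept. A gene was kept with the same direction and side of the threshold, and a number of called members when it was unchanged. A median was kept when it moved by less than the within-group SD of the library means in the compared groups. Medians that changed sign, as for tunicamycin and Ceapin-A7, are therefore among the values kept. With both vehicle sets as control, which sets tables of different gene lists side by side, members called were 1 lower with tunicamycin (Tapbp, -0.38), 1 higher with AA147 (Ifit1, 0.65), and 1 higher (Ifi27) and 2 lower (Stat2, Trim25) with Ceapin-A7, where 43.8%, 22.5% and 33.4% of all tested genes were called. Over leaving out each replicate in turn, members called lower with tunicamycin ranged from 0 to 1, lower in tunicamycin against Ceapin-A7 from 0 to 2, and in vehicle set 2 against set 1 from 0 to 2 higher and from 0 to 3 lower. Tunicamycin against Ceapin-A7 gave 0 lower with 1 table family only, while no filter called Iigp1 and the compared groups alone H2-Aa in place of Xaf1. In vehicle set 2 against set 1, the Ddx3y covariate gave 2 higher and 0 lower, and leaving out vehicle set 2 libraries 4 and 5 gave 0 higher and 2 lower. Without those libraries, the tunicamycin changes of Trim25 and Stat2 reversed to 0.0058 and 0.051. With array weights the tunicamycin median was -0.043, with 24 of the 39 genes below 0. With both vehicle sets as control it was -0.047, with 22 below 0. With quantile normalization it was -0.15, with 34 below 0. The AA147 median was 0.10 with array weights, with 33 genes above 0. It was 0.12 with both vehicle sets as control, with 28 above 0. The cause of these shifts was not tested. A few genes fell under the filter with 1 table family only and have no value there. AA147 without libraries 4 and 5 was chosen after seeing the data.

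Replicate numbers did not pair the libraries (correlations of same-numbered libraries from -0.43 to 0.47), and labels tie the numbers to no animal. With the replicate block, members called were 0 for each compound against its vehicle set, 1 lower for tunicamycin against Ceapin-A7, and 1 higher and 1 lower between vehicle sets, as without the block.

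FPKM without counts gives no depth, so counting error cannot be given, which bears most on genes near 1 FPKM.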

Other observations

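Among induced effectors outside the 43 genes, Cxcl10, a chemokine raised by interferon gamma, had the smallest p with AA147. It stood at 0.8, 0.34, 0.52, 0.7 and 0.52 FPKM in vehicle set 1 and at 1.74, 5.27, 2.36, 2.41 and 2.34 FPKM with AA147, with no overlap. Over all tested genes 0.45% had no overlap upward with AA147. The log2 change of Cxcl10 was 1.22 (SE 0.48), with a limma adjusted p of 1.00. In vehicle set 2 Cxcl10 ranged from 0.35 to 9.82 FPKM, wider than the difference between AA147 and set 1. Ifit3b, the copy next to Ifit3, was second in that list at a log2 change of 0.36 (SE 0.18), with 5.22 ± 0.769 FPKM (SD, n = 5) in vehicle set 1 and 7.08 ± 1.73 with AA147. Of the 35 tested effectors outside the 43 genes, 31 had AA147 changes above 0, with a median of 0.082.

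Lgmn, a lysosomal protease of class II antigen processing, stood at 131.19 to 135.14 FPKM in vehicle set 1 and at 117.58 to 122.76 with AA147, with no overlap. Over all tested genes 0.206% had no overlap downward with AA147. The log2 change of Lgmn was -0.14 (SE 0.058), with a limma adjusted p of 1.00.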
